A study of Mus musculus with 6 samples.

Results

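The core spliceosome proteins measured here are 40 genes, chosen by name, that encode proteins of the U1 and U2 small nuclear ribonucleoproteins (snRNPs), the Sm ring, the U4/U6.U5 tri-snRNP and the Prp19 complex. They are 40 of the 46078 genes listed in the deposited count table, and all 40 had 10 or more counts in at least 3 libraries. They were also among the 14828 genes that passed the filter on low counts and were tested. A total of 41 rows carry one of these names, because *Snrnp40* is listed under another identifier with no count, and that row was not used. Ribosomal RNA was removed and the remaining total RNA sequenced from C2C12 cells, an immortalized mouse myoblast line that withdraws from the cell cycle and fuses into myotubes when serum is reduced. The groups were 3 *Hnrnpa2b1* knockout (KO) and 3 wild-type (WT) libraries, here KO1, KO2, KO3, WT1, WT2 and WT3, all made after 2 days of serum withdrawal with insulin, transferrin and selenium. KO cells were made by transfecting Cas9 with a single guide RNA and selecting with puromycin, and KO and WT clones were picked with cloning rings, 3 of each. The sources used here do not state which clone gave which library, so the p-values measure the spread between these libraries. The comparison asks how the RNAs of the splicing machinery itself stood in cells that lack an RNA-binding protein the study describes as a splicing regulator.

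The spliceosome removes introns from pre-mRNA in ordered steps. The U1 snRNP recognises the 5′ splice site, U2AF and the U2 snRNP recognise the polypyrimidine tract, the 3′ splice site and the branch site, and the preassembled U4/U6.U5 tri-snRNP then joins. Unwinding of U4 from U6 and arrival of the Prp19 complex lead to the catalytic spliceosome. The Sm ring, made of the same set of proteins, wraps the U1, U2, U4 and U5 small nuclear RNAs. In differentiating muscle cells many sarcomeric and signalling transcripts change their exon use, and this machinery carries out that splicing together with tissue-regulated factors.

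*Prpf19* and *Snrnp70* were among the RNAs that the study picked from its own Hnrnpa2b1 binding sites, found by crosslinking and immunoprecipitation, for a quantitative PCR assay after pulling down Hnrnpa2b1. The 4 primers are shown because they fix the stretch of each RNA that was assayed. They are written 5′ to 3′ as designed, in lower case with no base singled out, and the binding data themselves are not analysed here.
Prpf19 forward: cctcacagtggcctaccct
Prpf19 reverse: cagttgctggcgaagagtgaa
Snrnp70 forward: cccgagatcccatcccatac
Snrnp70 reverse: caatgccacagtaaggttggt
Matched to the GENCODE M21 transcripts on GRCm38, both *Prpf19* primers lie in exon 4 of the 16 exons of its longest coding transcript, at chr19:10898957-10898975 and chr19:10899004-10899024. The forward primer matched 1 *Prpf19* transcript and the reverse primer 4. Both *Snrnp70* primers lie in exon 2 of 10, at chr7:45394743-45394762 and chr7:45394682-45394702 of a gene on the minus strand, and matched 8 and 9 of its transcripts. No primer crossed an exon junction or matched a transcript of another gene.

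Reads counted on genes numbered 36417517 to 40558740 in the KO libraries and 33605258 to 39134651 in the WT libraries, and a member had between 49 and 16763 counts in a library. The targeted gene, *Hnrnpa2b1*, had 159, 195 and 249 CPM in the KO libraries and 225, 229 and 252 in the WT libraries, where CPM are counts relative to the library's TMM-scaled total (trimmed mean of M-values) and values stand in the order of replicates 1 to 3, as in all such lists. The ranges overlapped, at a log2 fold change (KO over WT) of −0.23 (SE 0.18, adjusted p = 0.381) by edgeR's quasi-likelihood test, so its RNA does not check the labels. The study examined the protein itself on immunostained cells and Western blots, and those data are not used here. The KO libraries were not alike. The summed level of the 9 myogenic markers tested was 18278, 8239 and 7381 CPM in the KO libraries and 13107 to 16502 in WT. The summed level of the 10 proliferation markers was 336, 591 and 537 CPM in the KO libraries and 323 to 408 in WT. KO1 thus lay above all WT libraries in the myogenic sum and within their range in the proliferation sum, while KO2 and KO3 lay below all of WT in the former and above all of WT in the latter. In KO3, fold changes also followed transcript length across all genes, with a median difference from the WT mean of −0.34 (log2) for transcripts up to 1 kb and 0.11 for those over 4 kb.

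The core spliceosome genes did not move in one direction. Of the 40, 5 were higher in KO, 4 were lower and 31 did not pass an adjusted p of 0.05. The genes that passed were 22.5% of the members, beside 22.7% of all genes tested. The 5 higher are 12.5% of the members beside a background of 12.1%, and the 4 lower are 10% beside 10.6%, so that in this fit the share of members that differed lay near that of the transcriptome in both directions. The higher genes were *Prpf39*, *Sf3b3*, *Prpf6*, *Prpf31* and *Eftud2*, and the lower genes were *Prpf19*, *Sf3b5*, *Prpf4* and *Sf3a1*. Of the 9, 8 changed by less than 2-fold, and *Prpf19* was the exception. The log2 fold changes of all 40 ran from −1.04 to 0.73, with 23 above 0 (57.5%, beside 52.3% of all genes) and a median of 0.10, beside 0.03 over all genes tested. The median size of the change regardless of sign was 0.24 for the members (median SE 0.14) and 0.42 for all genes (median SE 0.22). The KO and WT libraries did not overlap in 22 of the 40, 12 of them higher in KO and 10 lower, where this held for 44.3% of all genes. Without any adjustment, 13 members (32.5%) had a p-value under 0.05, beside 39% of all genes. The shares of all genes past the threshold, 12.1% higher and 10.6% lower, are the background for each count by subcomplex or list below.

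**Figure D1:**
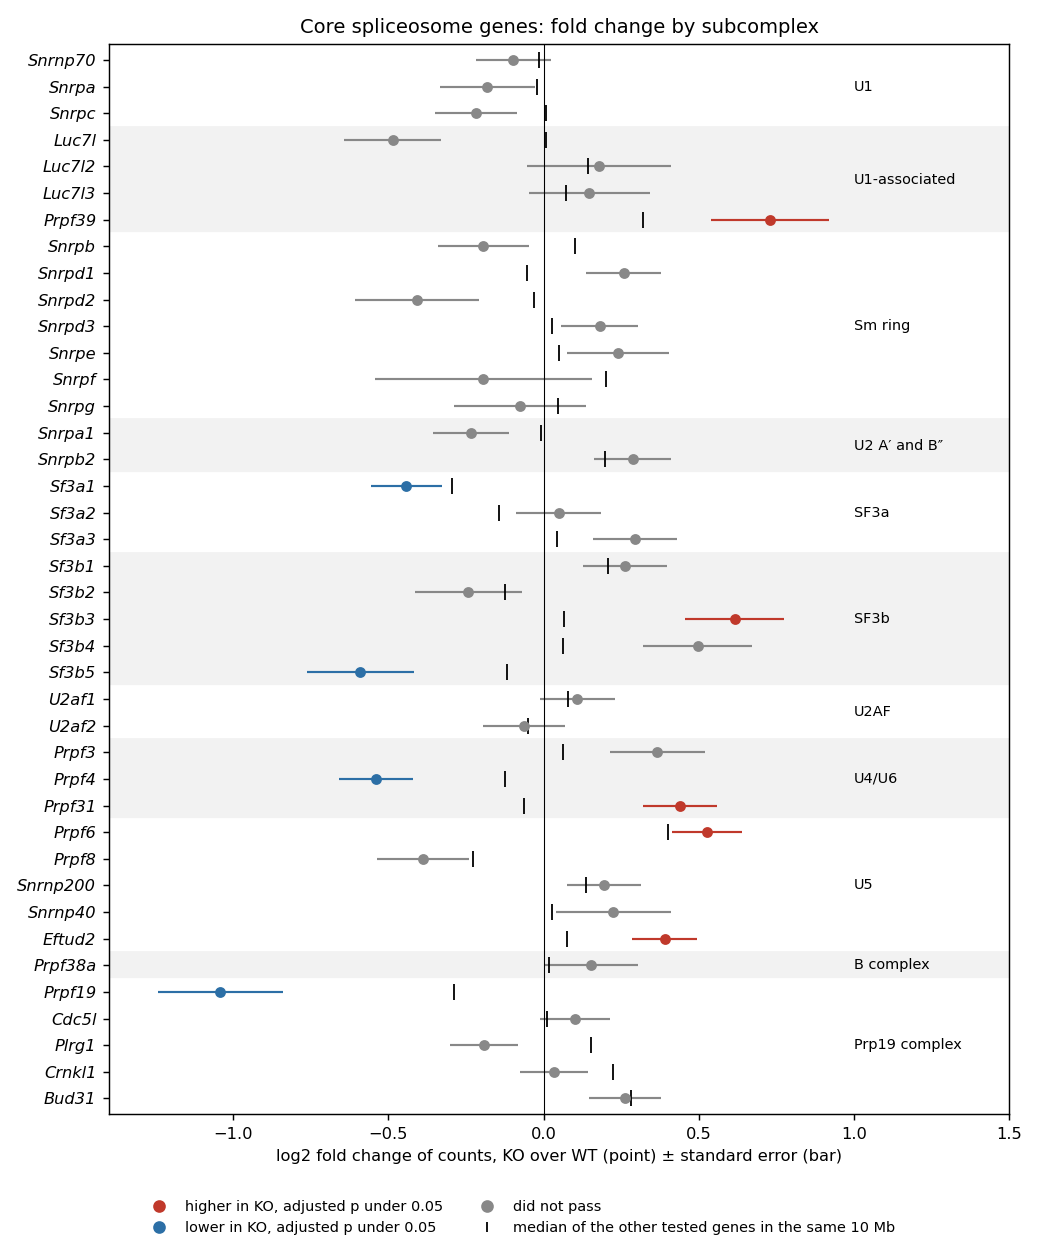
Log2 fold change of counts, KO over WT, of the 40 core spliceosome genes (points, with the standard error as bars), ordered by subcomplex. Red points passed the threshold as higher in KO and blue points as lower, grey points did not pass, and each black tick is the median log2 fold change of the other tested genes in the same 10 Mb of the chromosome. Genes past the threshold lie on both sides of 0, from −1.04 for *Prpf19* to 0.73 for *Prpf39*, and the SF3b and U4/U6 proteins have one on each side.

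The number of genes past the threshold changed with single libraries. Without KO1 there were 5 higher and 4 lower members (22.5% of the 40, beside 30.6% of all genes). There were 2 and 3 without KO2 (12.5% beside 17.7%), 1 and 3 without KO3 (10% beside 13.9%), 0 and 2 without WT2 (5% beside 13.6%) and 0 and 1 without WT3 (2.5% beside 8.43%). Without WT1 there were 0 and 0, beside 6.01% of all genes, and edgeR still gave 11 members an unadjusted p under 0.05. It also changed with the input. In limma on log2(TPM + 1) with a filter on low values, *Prpf19* alone of the 40 passed, or 2.5% beside 20.5% of all genes, so the members no longer lay near the background. Of the 16 alternatives, the call was kept in 14 for *Prpf19*, 10 each for *Prpf4* and *Prpf6*, 9 for *Prpf39*, 8 for *Sf3b3*, 7 for *Sf3b5*, 5 each for *Sf3a1* and *Prpf31*, and 4 for *Eftud2*. The sign of all 9 differing genes was the same in each of the 16 alternative fits.

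Levels of different genes were compared as TPM, which the authors computed with a correction for transcript length. The mean over the 6 libraries was highest for *Sf3b2* (71.8 TPM), *Snrpb* (65.1), *Prpf19* (64.3), *Snrpd1* (55.0) and *Snrnp70* (51.0). The lowest levels were those of *Sf3b5* (2.58 TPM), *Prpf4* (4.26) and *Prpf39* (6.23). The spread among the members was thus wide even within a particle whose proteins assemble in equal copies. Within the Sm ring, mean levels ran from 9.28 TPM for *Snrpd3* to 65.1 for *Snrpb*, and within SF3b from 2.58 for *Sf3b5* to 71.8 for *Sf3b2*. The order depended on the measure. By CPM per kb of all annotated exons, *Snrnp70* ranked 17 and *Prpf8* 2, where TPM ranked them 5 and 12, and *Prpf39* was the lowest. *Prpf19* had the highest level of all 40 in WT and was passed by 6 of them in KO, with 44.9 ± 10.1 TPM in KO and 83.7 ± 5.37 in WT (SD, n = 3). *Sf3b2* had 65.4 ± 10.5 TPM in KO and 78.2 ± 7.25 in WT (SD, n = 3). TPM values are shares of a library, and the tested genes together summed to 549596 TPM in KO2 and 763572 in KO3, with the other libraries in between. The high TPM of many members in KO3 therefore stand beside a high total, and differences between the genotypes are given from counts.

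**Figure D2:**
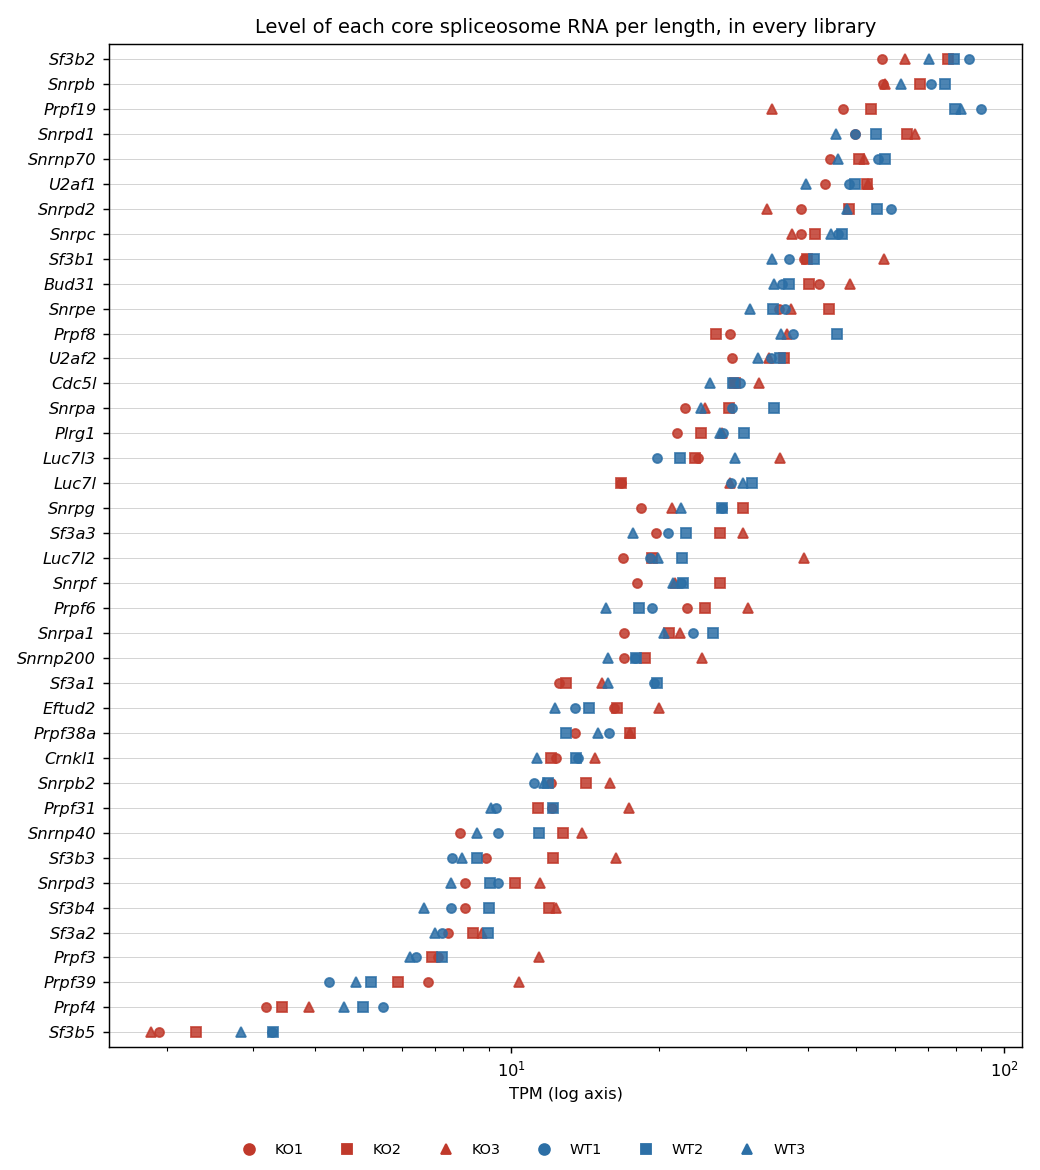
TPM of each of the 40 core spliceosome RNAs in every library, on a log axis, ordered by the mean over the 6 libraries. Red symbols are KO and blue symbols are WT libraries, with circles, squares and triangles for replicates 1, 2 and 3. Levels run from a mean of 2.58 TPM for *Sf3b5* to 71.8 for *Sf3b2*, and the KO and WT symbols of *Prpf19* are the most widely separated among the abundant members.

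The proteins specific to the U1 snRNP, which finds the 5′ splice site, had 0 of 3 past the threshold in either direction, also at an unadjusted p under 0.05 in edgeR, and a median log2 fold change of −0.18. *Snrnp70* (ENSMUSG00000063511, chr7:45376462-45395692, minus strand), whose product binds the first stem loop of U1 RNA and which carries the primers above, had 125, 135 and 118 CPM in the KO libraries and 139, 141 and 125 in the WT libraries. The genotypes overlapped, and its log2 fold change was −0.10 (SE 0.12, adjusted p = 0.581). *Snrpa*, which encodes the A protein of U1, which binds another stem loop, had a log2 fold change of −0.18 (SE 0.15), and 31.1% of its 50-base stretches occur in transcripts of other genes. *Snrpc*, whose product, the C protein, steadies pairing with the 5′ splice site, had −0.22 (SE 0.13), with all KO libraries below all WT libraries. In KO3 the median difference of these genes from the WT mean was −0.38, beside −0.11 in KO1 and 0.00 in KO2. All 3 have a longest coding transcript of 1 to 2 kb, a class whose median in KO3 was −0.20 across all genes. The part of transcript length in these values was not tested.

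Among the U1-associated proteins, the mammalian relatives of yeast U1 subunits, 1 of 4 was higher and 0 were lower. *Prpf39* (ENSMUSG00000035597, chr12:65036333-65063386, plus strand), a tetratricopeptide-like repeat protein that forms a dimer and binds the U1 snRNP, had 38.9, 34.4 and 51.2 CPM in the KO libraries and 20.7, 27.5 and 26.9 in the WT libraries. All KO libraries lay above all WT libraries, with KO3 the highest. The log2 fold change was 0.73 (SE 0.19, adjusted p = 0.0308), and the call was lost without KO3 (adjusted p = 0.0773), WT1 (0.125), WT2 (0.0599) or WT3 (0.0919). Of its 50-base stretches, 12.5% occur in transcripts of *Fkbp3*, which overlaps 5.0% of its exon bases. The LUC7-like genes, which influence the choice of 5′ splice site, had fold changes of both signs. *Luc7l* had 67.9, 71.2 and 92.8 CPM in the KO libraries and 98.4, 108 and 119 in the WT libraries. The KO libraries were the 3 lowest, yet its log2 fold change of −0.49 (SE 0.16, adjusted p = 0.0581) did not pass here, although it passed in DESeq2, with every counted gene kept, and without KO3 (adjusted p = 0.0306). *Luc7l2* had 77.7, 86.7 and 145 CPM in the KO libraries and 84.9, 96.1 and 92.9 in the WT libraries, so that KO3 alone stood above WT, and its log2 fold change of 0.18 (SE 0.23) turned to −0.15 without KO3. *Luc7l3*, the most abundant of the 4 by TPM, had 115, 99.2 and 134 CPM in the KO libraries and 84.1, 98.2 and 132 in the WT libraries, with overlapping genotypes and a log2 fold change of 0.15 (SE 0.19). In the group as a whole, KO3 had a median difference from WT of 0.52, beside −0.03 in KO1 and −0.06 in KO2. All 4 have transcripts over 4 kb, the class in which KO3 was high across all genes, and the part of transcript length in these values was not tested.

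None of the 7 Sm genes passed edgeR's threshold, and 0 had an unadjusted p under 0.05. The median of the ring was −0.08, with 3 genes above 0 and 4 below. *Snrpb*, which encodes SmB and its splice form, had the highest TPM of the ring and 109, 123 and 88.0 CPM in the KO libraries and 123, 128 and 115 in the WT libraries. The genotypes overlapped, at a log2 fold change of −0.19 (SE 0.15). *Snrpd1*, with SmD1 as its product, had 68.4, 82.9 and 72.6 CPM in the KO libraries and 61.5, 65.5 and 60.3 in the WT libraries. Here all KO libraries were above all WT libraries, at 0.26 (SE 0.12, adjusted p = 0.157). *Snrpd2* had the opposite sign, with 38.0, 45.1 and 25.9 CPM in the KO libraries and 51.9, 47.2 and 45.5 in the WT libraries. All of its KO libraries were below all WT libraries, with KO3 the lowest, at −0.41 (SE 0.20, adjusted p = 0.172). Its longest coding transcript has 1420 bases, in the 1 to 2 kb class that was at −0.20 in KO3 across all genes. The SmD1 and SmD2 genes, whose products bind each other before the ring closes, thus differed in sign without either passing the test. The remaining members had log2 fold changes of 0.18 (SE 0.12) for *Snrpd3*, 0.24 (SE 0.16) for *Snrpe*, −0.08 (SE 0.21) for *Snrpg* and −0.19 (SE 0.35) for *Snrpf*. The value of *Snrpf* is uncertain, because 85.4% of its exon bases overlap *Ccdc38* or *4933408J17Rik* and 89.5% of its 50-base stretches occur in other genes. It had a mean of only 2.52 CPM, while its TPM of 22 was in the middle of the members. By library, the median of the ring was 0.29 above WT in KO2 and −0.16 and −0.16 in KO1 and KO3, so that the KO libraries lay on both sides of WT.

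**Figure D3:**
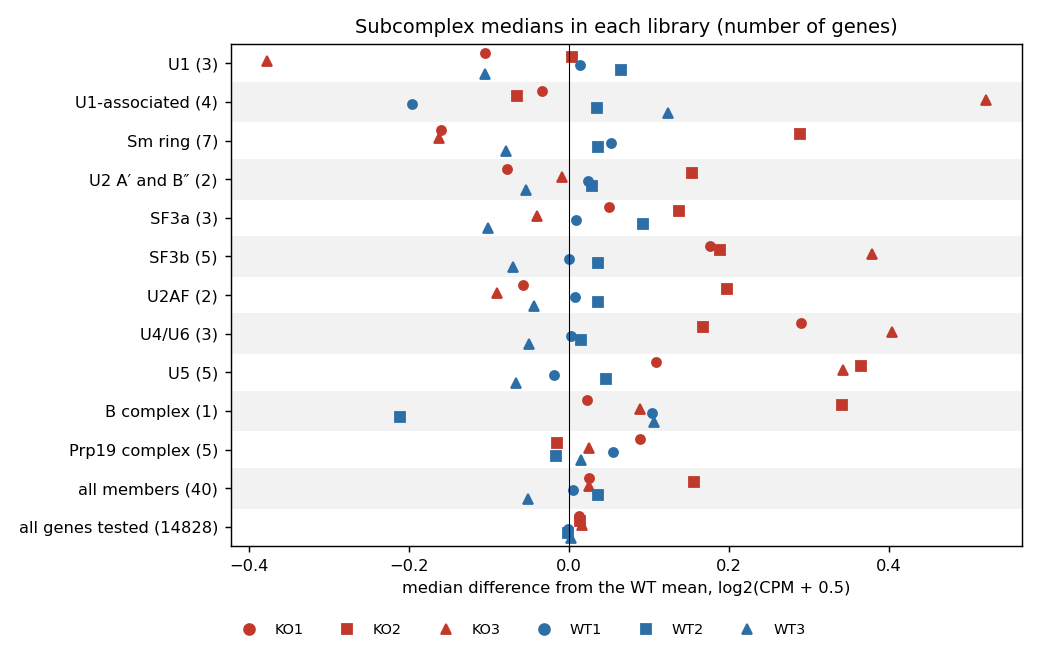
Median difference of each library from the WT mean, in log2(CPM + 0.5), over the genes of each subcomplex, over all 40 members and over all genes tested, with the number of genes in brackets. Red symbols are KO and blue symbols are WT libraries. All genes lie near 0 in every library, the KO libraries of the Sm ring, U2 and U2AF groups lie on both sides of WT, and all 3 KO libraries lie above all WT libraries for the SF3b, U4/U6 and U5 proteins.

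Of the 10 genes of the U2 snRNP, including SF3a and SF3b, 1 was higher and 2 were lower. These are 10% and 20%, beside 12.1% and 10.6% of all genes. The pair of proteins that sit on a stem loop of U2 RNA had opposite signs. *Snrpa1*, for the A′ protein, had 34.5, 39.7 and 35.3 CPM in the KO libraries and 42.7, 45.7 and 40.5 in the WT libraries. *Snrpb2*, for its partner, the B″ protein, had 36.3, 43.7 and 39.1 CPM in the KO libraries and 33.9, 31.8 and 32.0 in the WT libraries. Genotypes did not overlap in either gene, KO being lower for *Snrpa1* at −0.23 (SE 0.12, adjusted p = 0.194) and higher for *Snrpb2* at 0.29 (SE 0.12, adjusted p = 0.129), and neither passed.

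SF3a, a trimer that joins the U2 particle to the branch site region, had 1 lower gene and 0 higher. *Sf3a1* (ENSMUSG00000002129, chr11:4160350-4182541, plus strand), which encodes the subunit with the SURP domains, had 98.1, 95.9 and 94.4 CPM in the KO libraries and 138, 134 and 120.1 in the WT libraries. The 3 KO libraries were close together and below every WT library. Its log2 fold change was −0.44 (SE 0.11, adjusted p = 0.0299), and the call was lost without any one library but KO1, with an adjusted p of up to 0.13 without WT1. *Sf3a3*, the SF3a gene with the highest TPM, had 57.2, 73.4 and 69.2 CPM in the KO libraries and 54.6, 57.9 and 50.5 in the WT libraries. WT2 was above KO1, and the log2 fold change was 0.29 (SE 0.13). *Sf3a2* had 0.05 (SE 0.14), which changed sign to −0.02 without WT1.

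SF3b, the part of U2 that holds the branch site adenosine, had 1 higher and 1 lower gene of 5. *Sf3b3* (ENSMUSG00000033732, chr8:110810492-110846803, minus strand), a large subunit built of beta propellers, had 63.2, 80.8 and 92.2 CPM in the KO libraries and 47.6, 52.2 and 54.4 in the WT libraries. All KO libraries were above all WT libraries, with KO1 the lowest of the KO values. The log2 fold change was 0.61 (SE 0.16, adjusted p = 0.0298), and it was lost without any one library but KO1, with an adjusted p of up to 0.128 without WT1. *Sf3b5* (ENSMUSG00000078348, chr10:13005343-13009183, plus strand), a small subunit that contacts Sf3b3 and whose gene has 1 exon, had 12.3, 13.6 and 9.52 CPM in the KO libraries and 18.2, 18.2 and 16.9 in the WT libraries. It was lower in every KO library, at −0.59 (SE 0.17, adjusted p = 0.0438), and the call was lost without KO3 (adjusted p = 0.0911), WT1 (0.15), WT2 (0.1) or WT3 (0.0956). Neighbouring subunits thus went opposite ways. *Sf3b1*, for the subunit that closes around the branch site, had 359.5, 354 and 404 CPM in the KO libraries and 310.4, 326 and 295 in the WT libraries. Its KO libraries were all above WT, at 0.26 (SE 0.14, adjusted p = 0.191). *Sf3b2*, the member with the highest mean TPM over the 6 libraries, had 297, 384 and 264 CPM in the KO libraries and 398, 361 and 359 in the WT libraries. KO2 was within the WT range and KO1 and KO3 were below it, at −0.24 (SE 0.17). *Sf3b4*, for a protein with RNA recognition motifs near the branch site, had 20.8, 30.5 and 26.6 CPM in the KO libraries and 17.5, 20.5 and 17.3 in the WT libraries. Every KO library was above every WT library, and the log2 fold change of 0.50 (SE 0.18, adjusted p = 0.0764) passed only without KO1 (adjusted p = 0.0194), while 51.2% of its 50-base stretches also occur in transcripts of other genes.

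The U2AF heterodimer, which reads the polypyrimidine tract and the terminal AG of the intron, had 0 of 2 genes past the threshold in edgeR and 0 at an unadjusted p under 0.05. *U2af1* had 61.9, 72.3 and 62.3 CPM in the KO libraries and 62.6, 63.1 and 56.6 in the WT libraries. *U2af2* had 90.7, 111 and 86.0 CPM in the KO libraries and 98.0, 101 and 101 in the WT libraries. Both overlapped between genotypes, at 0.11 (SE 0.12) and −0.06 (SE 0.13). Of the 50-base stretches of *U2af1*, 59.4% occur in transcripts of other genes, and of *U2af2* 29.9%, so their counts are uncertain.

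The 8 U4/U6 and U5 proteins among the members, a part of the tri-snRNP, held 4 of the 9 genes past the threshold. Of these 8, 3 were higher and 1 lower, and the median log2 fold change was 0.30. Over all genes tested, 12.1% were higher and 10.6% lower. In 7 of the 8 the KO and WT libraries did not overlap, 5 of them higher in KO, beside 44.3% of all genes in either direction and 22.7% higher in KO. With 8 genes, these counts are a description. The 17 other tri-snRNP and B complex factors, given below, had a median of −0.03, with 7 above 0 and 10 below. Among the U4/U6 proteins, *Prpf31* (ENSMUSG00000008373, chr7:3629985-3642486, plus strand), which clamps U4 RNA and links it to the U5 particle, had 41.6, 41.7 and 40.3 CPM in the KO libraries and 28.2, 30.7 and 32.3 in the WT libraries. The KO values were nearly equal and lay above every WT value. The log2 fold change was 0.44 (SE 0.12, adjusted p = 0.0336), and it was lost in DESeq2 and without any one library but KO1, with an adjusted p of up to 0.16 without WT1. *Prpf4* (ENSMUSG00000066148, chr4:62408797-62426990, plus strand), a WD repeat protein that pairs with Prpf3 on U4/U6, had 26.6, 26.5 and 26.0 CPM in the KO libraries and 41.3, 36.8 and 37.0 in the WT libraries. Again the KO values were nearly equal, here below every WT value. The log2 fold change was −0.54 (SE 0.12, adjusted p = 0.0181), and it was lost without WT1 (adjusted p = 0.0947) or WT3 (0.0572). Its partner *Prpf3* had 32.5, 29.9 and 40.3 CPM in the KO libraries and 26.6, 28.5 and 24.6 in the WT libraries. KO was higher in every library, at 0.37 (SE 0.15, adjusted p = 0.118), which did not pass. Exon bases of *Prpf31* overlap *Gm15927* over 18.1% of their length, and the use of strand in counting is not given in the sources used here.

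Of the 5 U5 proteins, 2 were higher and 0 lower, or 40% and 0% beside 12.1% and 10.6% of all genes. *Prpf6* (ENSMUSG00000002455, chr2:181591868-181655660, plus strand), the bridge between U5 and U4/U6, had 110.5, 115 and 116 CPM in the KO libraries and 84.9, 77.6 and 74.7 in the WT libraries. KO libraries were all above WT libraries, and the spread within either genotype was small beside the gap. The log2 fold change was 0.53 (SE 0.11, adjusted p = 0.0165), and the call was lost without WT1 (adjusted p = 0.0623), WT2 (0.0594) or WT3 (0.0912). *Eftud2* (ENSMUSG00000020929, chr11:102838473-102880985, minus strand), the GTPase of U5, had 80.6, 77.6 and 77.9 CPM in the KO libraries and 59.3, 62.1 and 58.9 in the WT libraries. The libraries of a genotype were close together and the genotypes apart, at 0.39 (SE 0.11, adjusted p = 0.0343). Its call was the least stable of the 9, being lost without any one library (adjusted p = 0.0529 to 0.15), in DESeq2 and in 12 of the 16 alternatives, and 26.9% of its exon bases overlap *Gm26668*. *Prpf8*, for the scaffold of the catalytic centre, had 336, 299 and 349 CPM in the KO libraries and 402, 478 and 409 in the WT libraries. It was lower in every KO library, at −0.39 (SE 0.15, adjusted p = 0.0918), and passed in none of the 16 alternatives. *Snrnp200*, for the helicase that unwinds U4 from U6, had 182, 189 and 207 CPM in the KO libraries and 172, 169 and 164 in the WT libraries. KO was higher in every library at 0.19 (SE 0.12), without passing. *Snrnp40*, for a WD repeat protein of U5, had 0.22 (SE 0.19) with overlapping libraries. *Prpf38a*, for a protein that joins at the B complex stage, had 33.4, 41.7 and 34.9 CPM in the KO libraries and 35.3, 28.3 and 35.4 in the WT libraries. KO2 was the highest and WT2 the lowest, and the log2 fold change was 0.15 (SE 0.15).

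**Figure D4:**
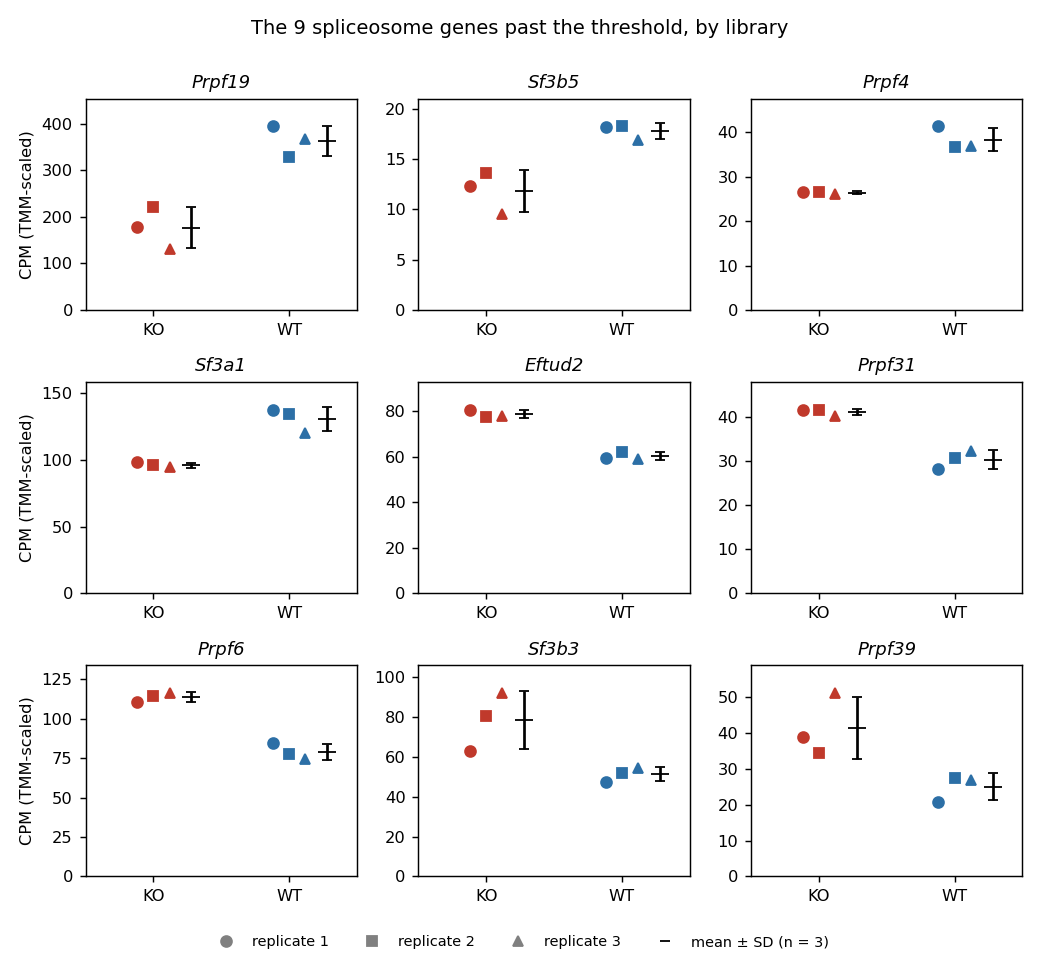
TMM-scaled CPM of the 9 core spliceosome genes past the threshold, in the 3 KO libraries (red) and the 3 WT libraries (blue), with symbols for the replicates and the mean and standard deviation in black. Each axis starts at 0. KO and WT libraries do not overlap in any of the 9 panels, and the gap is widest for *Prpf19*, where KO lies between 132 and 220.1 CPM and WT between 329 and 394.

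The Prp19 complex and related proteins held the largest change among the 40, and 1 of these 5 genes was lower and 0 were higher. *Prpf19* (ENSMUSG00000024735, chr19:10895231-10909559, plus strand), the ubiquitin ligase whose tetramer forms the core of the complex, had 178, 220.1 and 132 CPM in the KO libraries and 394, 329 and 367 in the WT libraries. The highest KO library lay below the lowest WT library, and KO3 was the lowest. The log2 fold change was −1.04 (SE 0.20, adjusted p = 0.0119), a level 2.06-fold lower in KO, and an exact two-sided permutation test of 3 against 3 gave the smallest p it can, 0.1. The call was kept in 14 of the 16 alternatives, with log2 fold changes from −1.23 to −0.86. It was lost without WT1 (adjusted p = 0.0614) and in limma on log2(TPM + 1) with no filter on low values. None of the other subunits passed the threshold. *Cdc5l*, for a Myb-like core subunit, had 135, 129 and 122 CPM in the KO libraries and 125, 118 and 118 in the WT libraries, and a log2 fold change of 0.10 (SE 0.11), with 40.6% of its 50-base stretches also in transcripts of other genes. *Plrg1*, for a WD repeat protein of the core, had 64.9, 68.4 and 62.6 CPM in the KO libraries and 71.4, 76.6 and 75.8 in the WT libraries. All KO libraries were below all WT libraries, at −0.19 (SE 0.11, adjusted p = 0.227). *Crnkl1*, for a scaffold of repeated helices, had 0.03 (SE 0.11), and *Bud31*, for a small protein near the catalytic RNA, had 0.26 (SE 0.12) with all KO libraries above WT.

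The 40 genes lie on 14 chromosomes. Each was compared with the median log2 fold change of the other tested genes in its 10 Mb of the chromosome. The member and its neighbours had the same sign in 31 of 40, or 77.5%, and in 8 of the 9 genes past the threshold, where this held for 56.7% of 14821 genes overall. Across the 40 genes, which share the 6 libraries, Pearson's r between a gene and its region was 0.65, beside 0.168 across all genes. These sets are unlike, with a median SE of 0.14 for the members and 0.22 for all genes. Log2 fold changes of all genes also ran wider, from −10.4 to 13.0. No set matched to the members was compared, so the values do not show that members follow their regions more closely than similar genes. *Prpf6* had a log2 fold change of 0.53 in a region with a median of 0.40, which leaves 0.13. *Sf3a1* had −0.44 in a region at −0.30, which leaves −0.15. *Prpf39* had 0.73 in a region at 0.32, and *Prpf19* −1.04 in a region at −0.29, so that both stood further out than their neighbours by 0.41 and −0.75. *Prpf31* was the exception in sign, at 0.44 in a region at −0.06. With the regional medians subtracted, the median over the 40 genes was 0.03. The part of position in these values was not tested.

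**Figure D5:**
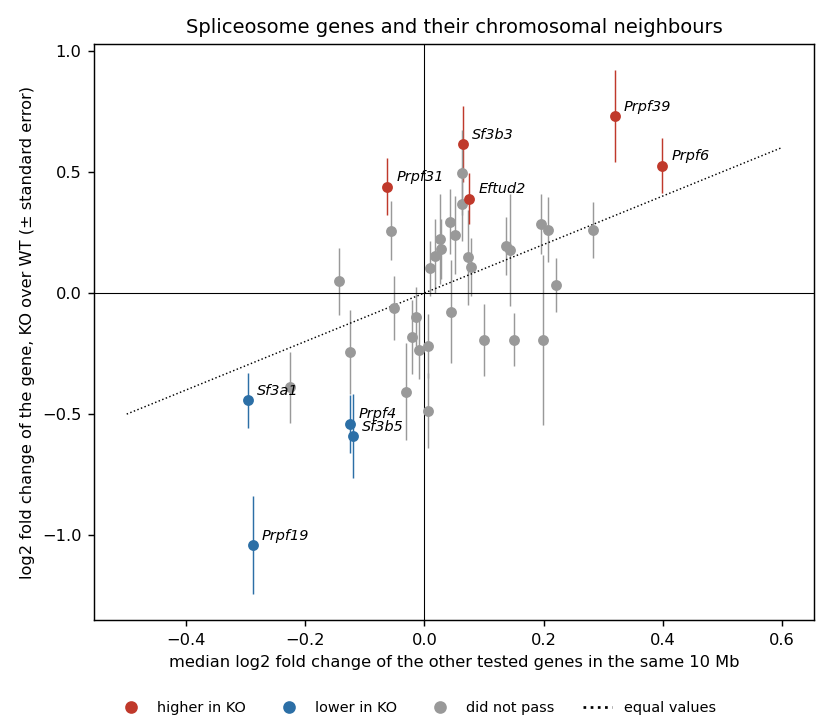
Log2 fold change of each of the 40 core spliceosome genes (vertical axis, with the standard error) against the median log2 fold change of the other tested genes in the same 10 Mb (horizontal axis). Red and blue points are the genes past the threshold as higher or lower in KO, and the dotted line marks equal values. *Prpf6* lies near the line with a regional median of 0.40, and *Prpf19* lies far below it.

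The rest of the splicing pathway was read from lists of 126 further genes with a value. Of these, 12 were higher and 9 were lower, or 16.7% of the 126 beside 22.7% of all genes, at a median log2 fold change of 0.06. Among 22 other U1 and U2 factors, 2 were higher and 1 lower, or 9.09% and 4.55% beside 12.1% and 10.6% of all genes. *Sf3b6*, for the SF3b subunit at the branch site, had 81.8, 94.5 and 77.3 CPM in the KO libraries and 44.3, 46.4 and 45.5 in the WT libraries. KO and WT were far apart, at 0.90 (SE 0.12, adjusted p = 0.00389), and this call held in all 16 alternatives. *Prpf40b*, a relative of a yeast U1 protein, had a log2 fold change of −0.64 (SE 0.11, adjusted p = 0.0087). Among 17 other tri-snRNP and B complex factors, 1 was higher and 1 lower, or 5.88% each. *Ppil1* was higher at 0.67 (SE 0.19, adjusted p = 0.0373) and *Usp39* lower at −0.37 (SE 0.11, adjusted p = 0.0469). The call of *Usp39* was kept in 2 of the 16 alternatives and was lost without each library in turn. Among 28 catalytic and second step factors, 2 were higher and 3 lower (7.14% and 10.7%), with the helicase gene *Dhx38* at 0.48 (SE 0.12) and the cyclophilin gene *Ppie* at −0.56 (SE 0.16). Of the 11 genes named from these lists, here and in what follows, 1 to 7 lost their call with a library left out, most of them without WT1, where *Acin1*, *Dhx38*, *Ppie*, *Ppil1*, *Prpf40b*, *Scnm1* and *Usp39* had an adjusted p of 0.051 to 0.163.

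The 14 genes of the LSm ring and other Sm proteins held 1 higher and 2 lower genes (7.14% and 14.3%). Together 21.4% were called, beside 22.7% of all genes. *Lsm11*, for a subunit of the U7 particle that processes histone pre-mRNA, had 13.3, 9.09 and 7.45 CPM in the KO libraries and 40.3, 32.1 and 30.9 in the WT libraries. The genotypes were far apart, at −1.79 (SE 0.24, adjusted p = 0.00347), in all 16 alternatives. *Lsm6*, for a subunit of the ring on U6 RNA, had a log2 fold change of 0.99 (SE 0.18, adjusted p = 0.0102). Among 23 genes of snRNP assembly and recycling, 4 were higher and 0 lower, or 17.4% called beside 22.7% of all genes, and 17.4% higher beside 12.1%. The largest rise there was in *Ncbp2*, for a cap-binding subunit, with 36.0, 49.99 and 43.1 CPM in the KO libraries and 22.7, 21.3 and 23.7 in the WT libraries and a log2 fold change of 0.93 (SE 0.15, adjusted p = 0.00693). Of 11 exon junction complex genes, 1 (9.09%, beside 12.1% of all genes) was higher, *Acin1* at 0.60 (SE 0.14, adjusted p = 0.0232).

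The minor spliceosome, which removes a small class of introns with its own U11 and U12 particles, had a lower median than the other lists, −0.37 over 11 genes, with 1 higher and 2 lower, or 27.3% called beside 22.7% of all genes. *Scnm1*, for one of its zinc finger proteins, had 22.4, 20.1 and 16.3 CPM in the KO libraries and 32.3, 29.0 and 30.5 in the WT libraries. All KO libraries were below all WT libraries, at −0.64 (SE 0.15, adjusted p = 0.0243). In every KO library the median of the list was below WT, at −0.25, −0.33 and −0.38 in KO1 to KO3.

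Markers of muscle, cycling and other cells were read in the same libraries. *Myod1*, the myogenic determination factor, had 171, 270.1 and 194 CPM in the KO libraries and 98.5, 126 and 96.0 in the WT libraries and was higher at 0.99 (SE 0.20, adjusted p = 0.0141), a call that was lost without WT1 (adjusted p = 0.0789) or WT3 (0.0695). *Myog* had 0.06 (SE 0.24) and *Ckm*, the muscle creatine kinase gene, −0.83 (SE 0.41, adjusted p = 0.17). Of the 9 myogenic markers tested, 2 were higher and 1 lower, or 22.2% and 11.1% beside 12.1% and 10.6% of all genes. The lower one, singled out only once its value was known, was *Myf5*, another determination factor, at 4.92, 11.8 and 4.27 CPM in the KO libraries and 16.1, 24.7 and 18.7 in the WT libraries and a log2 fold change of −1.50 (SE 0.39, adjusted p = 0.0303). That call was kept in 11 of the 16 alternatives and lost without KO3, WT1, WT2 or WT3 (highest adjusted p over the alternatives 0.092). *Mki67*, a marker of cycling cells, had 55.9, 115 and 126 CPM in the KO libraries and 44.3, 53.8 and 69.4 in the WT libraries, with KO1 within the WT range, at 0.82 (SE 0.30, adjusted p = 0.086). Of the 10 proliferation markers, 1 was higher and 0 were lower, or 10% higher beside 12.1% of all genes. Of 10 fibroblast and adipogenic progenitor markers 8 could be tested. Of these, 6 were higher and 0 lower, beside 12.1% and 10.6% of all genes, with a summed level of 5647 to 8976 CPM in KO and 3746 to 4759 in WT. Of 8 immune markers 3 were tested, and *Cd3e* had no count while *Ptprc* had at most 5 in a library. The 3 summed to 3.05 to 4.5 CPM in KO and 2.13 to 2.83 in WT, with 1 higher and 0 lower past the threshold. The 2 of 6 endothelial markers that were tested summed to 0.14 to 0.664 CPM in KO and 1.04 to 1.67 in WT. Of these 2, 0 were higher and 1 was lower, and *Pecam1* had 3 counts or fewer. The summed CPM of the 40 spliceosome genes was 3327 to 3578 in KO and 3574 to 3696 in WT, and the median difference from the WT mean was 0.02, 0.16 and 0.02 in KO1 to KO3. In bulk RNA, fewer cells of a kind and less RNA per cell cannot be told apart, and the part of cell state in the single genes was not tested.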

How the data were processed

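RNA-seq libraries were made from ribosome-depleted total RNA of differentiating C2C12 cells, 3 from *Hnrnpa2b1* KO and 3 from WT cells. After alignment with STAR, the authors deposited whole-number counts per gene from featureCounts, not normalized. They also deposited StringTie TPM values for each library, scaled to transcript length and library, and TPM sharing a gene identifier were summed here. The 6 count columns were all used. Tool versions, strand handling and the gene annotation behind the counts are not given in the sources used here. The methods name GRCm39 and the submitters' processing notes another build, but the deposited coordinates match GRCm38, on which positions are given.

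Counts were tested in edgeR 4.0.16 (R 4.3.3) with TMM factors of 0.949 to 1.08, filterByExpr, genotype as the only term, the two-sided quasi-likelihood test and Benjamini-Hochberg adjustment over all 14828 genes tested, at a threshold of 0.05. A standard error (SE) belongs to a log2 fold change (KO over WT). Alternatives used DESeq2 1.42.0, limma 3.58.1 on log2(TPM + 1) or log2(TPM + 0.1), other scalings and filters, a replicate block, and each library left out. Taken over all genes together, libraries of a genotype differed by more than counting error (chi-square per degree of freedom of 51.8 to 190), and no library repeated another. For single genes with few counts this was not tested. The steps were tested on simulated data.

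The members, the lists, the markers and the rule for named genes were chosen with earlier results of these data known. All members are accounted for. Values per library are given for members past the threshold, for the member of each subcomplex with the highest TPM, and for further members added afterwards to show neighbouring subunits. Of each other pathway list, the differing genes with the largest rise and the largest fall at a mean log2 CPM of at least 3 are named. Splicing, protein and binding data were not analysed here.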

Additional observations from a re-analysis of the deposited data

How the results depend on the processing

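In 33 of the 40 genes the log2 fold change had the same sign in all 16 alternative fits, and this held for the 9 past the threshold. The higher count of 5 and the lower count of 4 were unchanged with relative log expression factors, upper-quartile factors and a filter of 10 counts in 3 libraries. These are 22.5% of members, beside 22.8%, 23.1% and 22.6% of all genes in turn. DESeq2 gave 3 higher and 5 lower (20% of members beside 24.3% of all genes), and edgeR on every counted gene 3 and 4 (17.5% beside 15%). Library totals alone gave 5 and 2 (17.5% beside 23.4%), with a member median of 0.22, beside a shift of the median of all genes to 0.15. limma gave 0 higher and 1 lower on log2(TPM + 1) and on log2(TPM + 0.1), and 0 and 0 on log2(TPM + 1) with no filter, where 12 members had an unadjusted p under 0.05 (10 in each of the filtered fits). These are 2.5% of members beside 20.5% and 20.3% of genes in the filtered fits, and 0 beside 3.94% without a filter. The cause of these differences was not tested. Leaving out each library in turn gave 0 to 5 higher, 0 to 4 lower and member medians of 0.04 to 0.11. With regional medians subtracted the member median was 0.03.

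The replicate numbers are shared by name, and the deviations of same-numbered libraries had r of 0.137, −0.116 and 0.004, so they were not taken as pairs. With the replicate block, 3 members were higher (*Prpf39*, *Sf3b3* and *Prpf6*) and 1 lower (*Prpf19*), or 10% of members. *Prpf4*, *Sf3b5*, *Sf3a1*, *Prpf31* and *Eftud2* did not pass. Over all genes, the number past the threshold fell to 2520 of 14828 (17%).

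Signs turned for genes with a log2 fold change between −0.19 and 0.18. With library totals alone, *Snrnp70* was at 0.019, *Snrpg* at 0.045 and *U2af2* at 0.057. With a library left out, *Luc7l2* lay between −0.15 and 0.34, *Snrpf* between −0.52 and 0.071, *Snrpg* between −0.32 and 0.063, *Sf3a2* between −0.020 and 0.12, *U2af2* between −0.18 and 0.013, *Crnkl1* between −0.042 and 0.059, and *Myog* between −0.099 and 0.26.

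*Snrpf*, with 49 to 145 counts in a library, had the largest SE among the members (0.35). The part of depth in the values of the members was not tested.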
